A study of Mus musculus with 6 samples.

Results

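A set of 70 transcripts was already read in wild-type mouse embryonic stem cells and was at least 4 times higher in cells without G9a. They were chosen from 55419 UCSC transcript identifiers by their values in the same 6 libraries described here. The rule asked for a wild-type mean of 2 CPM or more (counts per 1000000 counts in the library's column), a knockout mean at least 4 times the wild-type mean, and a lowest knockout library above the highest wild-type library. Identifiers in 4 stretches of the table that shift as a whole between the genotypes (rows 13 to 2675, 7665 to 8259, 36088 to 36681 and 40746 to 42966) were left out. Most of these stretches were lower in knockout. Those stretches hold 5 further identifiers that meet the other conditions. Every genotype difference given below for the 70 transcripts was part of their selection, so it describes them and does not test anything.

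The cells were of the TT2 line (mES cells, strain given as C57BL/6 female and CBA male), kept in medium with fetal bovine serum and LIF. The groups were 3 poly-A libraries from TT2 cells, the wild type, and 3 from TT2 G9a-/- cells, the knockout. No separate culture, clone number or rescue with G9a is named in the labels, so p-values reflect the spread of these libraries alone, which may be technical, and a feature of 1 knockout clone cannot be told apart from loss of G9a. Library totals ran from 5738463 to 9717847 counts.

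G9a, encoded by Ehmt2, acts with its partner GLP to put methyl groups on lysine 9 of histone H3. This mark lies over broad regions of silent chromatin, and in embryonic stem cells the enzyme pair is known for keeping developmental and germline genes quiet and for helping DNA methylation reach their promoters. The transcripts described here are not silent in wild-type cells. The identifiers come without gene names, and none of the name tables used here lists them. No gene function, sequence or genome position is therefore given, and Ehmt2, stem cell markers and the planned gene lists were not analysed here. Only the transcript with the largest ratio and the one with the most knockout reads are named.

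As a set, the 70 transcripts held a small share of the reads in both genotypes, and a larger one in knockout than in wild type. Their summed level was 595, 579 and 599 CPM in wild-type replicates 1, 2 and 3, and 4557, 4576 and 4547 CPM in knockout replicates 1, 2 and 3. The libraries of each genotype lay close together and the genotypes were far apart. The means were 591 ± 10.6 CPM for wild type and 4560 ± 15.1 CPM for knockout (SD, n = 3 each), a ratio of 7.72 ± 0.140 (SD from the spread of both genotypes). This is a share of 0.0591% of all counts in wild type and 0.456% in knockout. No single transcript carried the gain. The one with the largest difference gave 7.75% of it, the top 5 gave 30.1%, the top 20 gave 66.7%, and 12 were needed to pass the halfway point.

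The edgeR quasi-likelihood test called all 70 higher in knockout at an adjusted p under 0.05, with adjusted p from 1.04e-19 to 3.79e-08 (n = 3 per genotype). Over all 12713 identifiers tested, 21.6% were called higher, and 25.2% had their lowest knockout library above their highest wild-type library. Since the rule used the same contrast, nothing is read from this difference. In each alternative fit all 70 were also called higher, beside 21.5% of identifiers with DESeq2 size factors, 19% with upper-quartile factors, 10.6% with no low-count filter, 21.1% with a filter of 1 CPM in 3 libraries, 22.9% with the replicate block, 12.1% with DESeq2 and 16.8% at an adjusted p under 0.01. Without wild-type replicates 1, 2 and 3 in turn the shares of all identifiers were 18.8%, 19.2% and 18.6%, and without knockout replicates 1, 2 and 3 they were 19.9%, 20.4% and 19.5%. All 70 passed the filter on low counts, and all 70 were above its cutoff in each wild-type library. The median log2 fold change was 2.86 (range 1.98 to 5.08), against -0.02 over all tested. Standard errors ran from 0.05 to 0.20 on the log2 scale. Each was calculated back from the test, as the absolute log2 fold change over the square root of its F statistic.

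**Figure D1:**
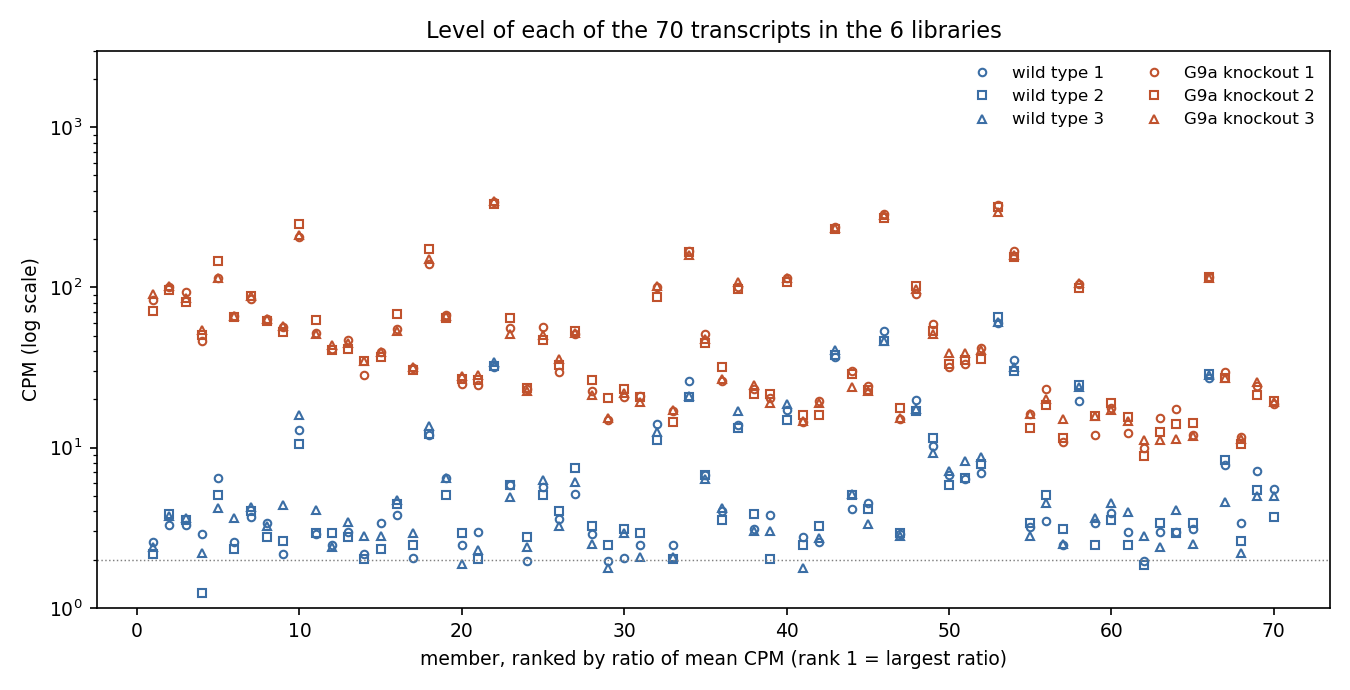
CPM (log scale) of each of the 70 transcripts in the 3 wild-type libraries (blue) and the 3 knockout libraries (orange), ordered by the ratio of mean CPM, with a dotted line at 2 CPM. The genotypes do not overlap for any transcript, which the rule required, and ratios run from 34.4 at rank 1 to 4.02 at rank 70.

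Most of the 70 lay low in wild type. Wild-type means ran from 2.07 to 62.2 CPM with a median of 3.63, and 44 of the 70 were below 5 CPM (24 at 2 to 3 CPM and 20 at 3 to 5 CPM). Only 15 were above the median wild-type level of all tested identifiers, 8.01 CPM. "Already expressed" thus means present in all 3 wild-type libraries at a level that is mostly below the middle of the tested range. Knockout means ran from 9.96 to 340 CPM with a median of 37.3, and all 70 were above the knockout median of the tested identifiers, 8.61 CPM. The median position among tested identifiers moved from the 34.8th percentile in wild type to the 70.7th in knockout. CPM values are not divided by transcript length, so these positions rank reads and not molecules.

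The read support was unequal between the genotypes. Over the 3 libraries of a genotype, a member had between 52 and 1593 wild-type reads (median 92.5) and between 232 and 8055 knockout reads (median 877.5). Relative counting error was therefore larger for the wild-type level of each transcript than for its knockout level. The reads carry no molecular identifiers, and counting intervals cover counting error only.

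Most ratios were moderate and a few were large. Of the 70, 17 had a ratio of 4 to 5, 22 of 5 to 8, 19 of 8 to 16, and 12 of 16 or more. The median was 7.21. The 12 with a ratio of 16 or more had wild-type means of 2.10 to 13.1 CPM and reached 41.8 to 222 CPM in knockout. The genotypes were usually separated by a wide margin. In 56 of the 70 the lowest knockout library was at least 4 times the highest wild-type library, and the narrowest margin was 2.78-fold.

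The transcript with the largest ratio was uc008hpm.2. It measured 2.57, 2.16 and 2.40 CPM in wild-type replicates 1, 2 and 3, and 83.7, 71.0 and 91.0 CPM in knockout replicates 1, 2 and 3. It was at the floor of the rule in all wild-type libraries and well above it in every knockout library, with knockout replicate 2 the lowest of these. The means were 2.38 ± 0.207 CPM and 81.9 ± 10.1 CPM (SD, n = 3 each), a ratio of 34.4. From 62 wild-type and 1910 knockout reads, the pooled ratio was 33.5 with a 95% exact binomial counting interval of 26.0 to 43.8. The edgeR log2 fold change was 5.08 with a standard error of 0.13 (adjusted p = 1.04e-16). The authors' deposited table lists 4.89.

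The transcript with the most knockout reads was uc008kob.1. Its wild-type levels of 31.9, 32.4 and 34.3 CPM in replicates 1, 2 and 3 were the fourth highest of the set. Its knockout levels were 343, 334 and 344 CPM in replicates 1, 2 and 3, nearly equal in all 3 libraries. The means were 32.9 ± 1.25 CPM and 340 ± 5.49 CPM (SD, n = 3 each), a ratio of 10.4. From 848 wild-type and 8055 knockout reads, the pooled ratio was 10.3 with a counting interval of 9.62 to 11.1. The edgeR log2 fold change was 3.38 with a standard error of 0.05 (adjusted p = 1.04e-19). The authors' deposited table lists 3.37.

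Among the 8 transcripts with wild-type means of 20 CPM or more, ratios ran from 4.11 to 10.4 with a median of 5.38. The one with the highest wild-type level measured 60.0, 65.6 and 61.1 CPM in wild-type replicates 1, 2 and 3, and 326, 315 and 295 CPM in knockout replicates 1, 2 and 3, a ratio of 5.02. The next measured 53.2, 46.3 and 46.6 CPM in the wild-type libraries and 286, 270 and 283 CPM in those of the knockout, in the same order, a ratio of 5.74. For these 8 transcripts the SD between libraries was 2.78% to 13.1% of the mean in wild type and 0.622% to 5.04% in knockout. Their median ratio was below that of the whole set, 7.21, while the highest ratios among them, 7.32 and 10.4, were above it.

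The other transcripts with very large ratios began lower. The second by ratio measured 3.29, 3.86 and 3.76 CPM in wild-type replicates 1, 2 and 3, and 100.2, 96.8 and 101 CPM in knockout replicates 1, 2 and 3, a ratio of 27.3. The third went from 3.50 ± 0.187 CPM to 86.8 ± 6.22 CPM (SD, n = 3 each), a ratio of 24.8. For both, every knockout library was at least 20 times every wild-type library. The fourth had the most uneven wild-type values of the set, 2.88, 1.23 and 2.19 CPM in replicates 1, 2 and 3, and 46.1, 50.3 and 54.4 CPM in knockout, a ratio of 23.9.

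Across the 70 transcripts, the wild-type level went along with the knockout level (Spearman's rho 0.67) and weakly against the ratio (rho -0.25). These are descriptions over 70 points that share their libraries. The wild-type level also enters the ratio, and the floor and the fold of the rule limit which points can appear.

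The share of identifiers taken by the rule was smaller in each higher band of wild-type level, a description without a test. Outside the 4 stretches, the rule took 24 of 1079 identifiers (2.22%) with wild-type means of 2 to 3 CPM and 20 of 1251 (1.60%) at 3 to 5 CPM. It took 11 of 1307 (0.842%) at 5 to 10 CPM, 7 of 1072 (0.653%) at 10 to 20 CPM, and 8 of 4006 (0.200%) at 20 CPM or more. In all it took 70 of 8715 (0.803%). The range of ratios also narrowed at the top, with a highest ratio of 34.4 in the lowest band and 10.4 in the highest.

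**Figure D2:**
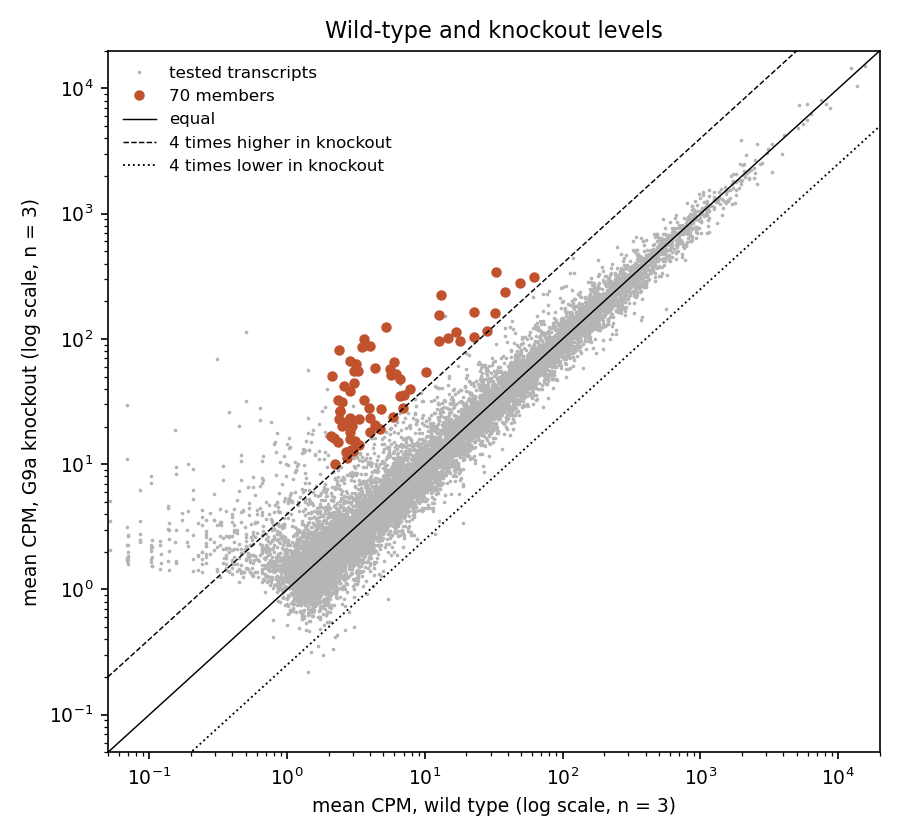
Mean CPM in wild type (x axis) against mean CPM in knockout (y axis), both on log scales, for tested transcripts (grey) and the 70 members (orange). Lines mark equality and 4-fold differences, and transcripts below 0.05 CPM in either genotype are not drawn. The members lie above the upper line from 2.07 to 62.2 CPM in wild type.

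Outside the 4 stretches, the reverse pattern was not found at this size. With the genotypes exchanged in the rule (knockout mean of 2 CPM or more, wild type at least 4 times higher, no overlap, outside the stretches), 0 of 8972 identifiers qualified, and the largest such ratio was 3.46. At 3-fold the same conditions gave 132 higher and 4 lower identifiers, at 2-fold 337 and 61, and at 1.5-fold 802 and 425. These are counts from a rule on means and overlap, not from a test.

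The choice of members was most sensitive at its edges. Just inside the fold condition lay ratios of 4.02, 4.05, 4.06, 4.07 and 4.11, and just outside it 3.97, 3.97, 3.96, 3.95 and 3.94. With the other conditions met, 20 identifiers had a ratio of 3.5 to 4 and 8 members had one of 4 to 4.5. Just inside the floor lay wild-type means of 2.07, 2.10, 2.19, 2.21 and 2.33 CPM, and just outside it 1.97, 1.95, 1.93, 1.93 and 1.90 CPM, with ratios of 4.96 to 20.4 among these last 5. Without the condition on overlap the list still held 70 identifiers, so that condition removed none. A further 293 tested identifiers met the fold and overlap conditions with wild-type means below 2 CPM. Their median level was 0.396 CPM in wild-type cells, against 3.50 CPM in knockout cells, and their median ratio was 9.66.

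Repeating the rule with each library left out gave lists of 71 to 75 identifiers, which shared 65 to 69 with the full list. In every one of these 6 lists 61 of the 70 were kept. The other 9 all had a ratio under 4.5 or a wild-type mean under 2.5 CPM. One of them was the fourth transcript by ratio, whose wild-type values are given above.

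Within a genotype, the median spread of the 70 transcripts between libraries was close to that of other transcripts in their range of levels. The median coefficient of variation over 3 libraries was 13.0% in wild type (range 1.95% to 39.3%), and 10.2% for the 7180 tested identifiers in the same range of wild-type means. In knockout it was 6.91% (0.622% to 21.3%), and 6.25% for the 5485 tested identifiers in the same range of knockout means. The members crowd toward the low end of the wild-type range, where counting error is largest. Set against counting error, the median chi-square per degree of freedom was 0.805 in wild type, against 0.858 for identifiers in the range. It was 1.64 in knockout, against 1.55. With 3 libraries, counting error alone gives a median of 0.693. The knockout median of the members was well above it and the wild-type median only slightly, a difference that was not tested. In knockout 15 of the 70 (21.4%) had a value above 3, against 28.1% of identifiers in the range, and in wild type 5 of the 70 (7.14%), against 9.48%.

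The median of the 70 levels was 3.55, 3.63 and 4.07 CPM in wild-type replicates 1, 2 and 3, and 36.4, 35.5 and 39.5 CPM in knockout replicates 1, 2 and 3. The highest wild-type value of a transcript fell in replicates 1, 2 and 3 for 19, 25 and 26 transcripts. The highest knockout value fell in replicates 1, 2 and 3 for 24, 22 and 24 transcripts. The lowest value fell in replicates 1, 2 and 3 for 22, 28 and 20 transcripts in wild type and for 22, 30 and 18 in knockout, with replicate 2 holding the largest number in both genotypes.

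**Figure D3:**
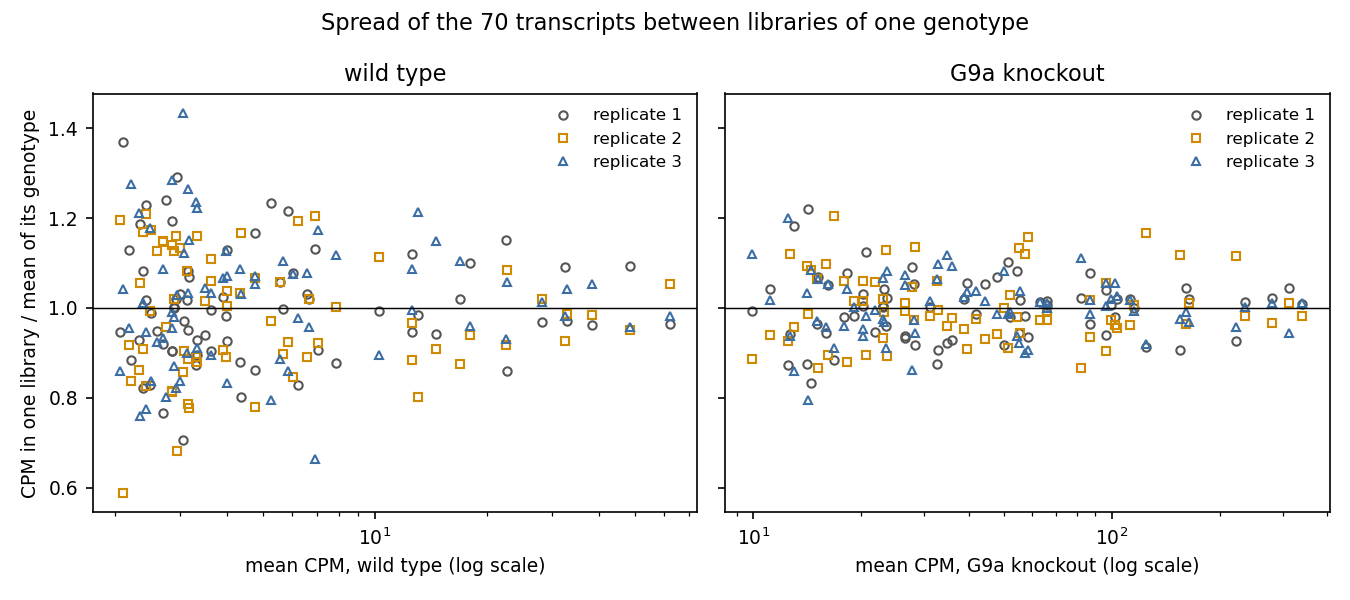
Level in one library divided by the mean of its genotype (y axis) against that mean in CPM (log scale), for the 70 transcripts in wild type (left) and knockout (right), with replicates by symbol and colour. Values spread most at low wild-type levels, and replicate 2 of the knockout lies above the line for the transcripts at 124, 155 and 222 CPM.

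Some single transcripts differed between knockout libraries by more than counting error, though values above 3 were not more frequent than among identifiers in the range (21.4% against 28.1%). The mark of 1.2 times used next is not a test against counting error. In 6 of the 70 (8.57%) knockout replicate 2 was at least 1.2 times the mean of replicates 1 and 3, against 2.70% of the tested identifiers in the same range of knockout means. In 3 it was lower than that mean by the same factor or more, uc008hpm.2 among them, where the share of identifiers in the range was 10.05%. Among the transcripts past either mark, the chi-square per degree of freedom in knockout began at 1.73, so not all of them were above 3. The chi-square per degree of freedom was largest for the fifth transcript by ratio, at 21.6. It measured 6.48, 5.09 and 4.18 CPM in wild-type replicates 1, 2 and 3, and 114, 145 and 114 CPM in knockout replicates 1, 2 and 3. Replicates 1 and 3 of the knockout were nearly equal and replicate 2 stood above them. The ratio was 23.7.

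That transcript was one of 3 members without an adjusted p in the authors' deposited table, all of them marked there as outliers. The other 2 stand in adjacent rows. The first of this pair measured 11.9, 12.2 and 13.7 CPM in wild-type replicates 1, 2 and 3, and 140.2, 173 and 151 CPM in knockout replicates 1, 2 and 3, a ratio of 12.3. Its neighbour measured 12.9, 10.5 and 15.9 CPM in the wild-type libraries and 206, 248 and 213 CPM in those of the knockout, in the same order, a ratio of 17.0. All 3 transcripts were highest in knockout replicate 2, and in all 3 the lowest knockout library was at least 10 times the highest wild-type library. In the authors' deposited table, 1.55% of the identifiers tested here carry the mark. That table holds 67 of the 70 as higher at an adjusted p under 0.05, where 14.3% of its identifiers with an adjusted p are higher. The authors' deposited table also lists smaller log2 fold changes than edgeR for all 70, by a median of 0.10 and at most 0.22. It lists 5 of them below 2.

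The 70 transcripts were spread over the table with a few close sets. Counting members within 5 rows of each other as one run gave 66 runs, of which 4 held 2 members each. In 3 of these pairs the members were in adjacent rows. One is the outlier pair above. Another is uc008kob.1 with the identifier listed just before it, which measured 36.9, 37.8 and 40.4 CPM in wild-type replicates 1, 2 and 3, and 239, 232 and 236 CPM in knockout replicates 1, 2 and 3. Its wild-type level was above that of uc008kob.1 and its knockout level below it, so the ratios differed, 6.14 and 10.4. The last adjacent pair had ratios of 10.9 and 9.70 with wild-type means of 2.43 and 2.38 CPM. The sources do not say whether such identifiers have exons or reads in common, so 2 members of a run cannot be taken as independent of each other. The closest set on a larger scale lay in rows 46158 to 46383, where 6 members had ratios of 5.80 to 23.9. Of the 48 other tested identifiers in those 226 rows, 17 were called higher (35.4%) and 9 lower (18.8%), beside 22.8% and 14.1% of all tested non-members outside the stretches. Their median log2 fold change was 0.18.

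Among identifiers listed close to the 70, the share called higher in knockout was above that of all tested non-members, a description for which no test was made. The table order did not enter the choice of members, apart from the stretches left out. Within 5 rows of a member, 58 of 143 other tested identifiers were called higher (40.6%) and 13 lower (9.09%), by the edgeR quasi-likelihood test at an adjusted p under 0.05. Over all tested identifiers outside the stretches other than members, a background that includes these neighbours, 22.8% were called higher and 14.1% lower. Directly adjacent identifiers were called higher in 17 of 35 cases (48.6%), those 2 to 5 rows away in 41 of 108 (38.0%), those 6 to 20 rows away in 108 of 413 (26.2%), and those 21 to 50 rows away in 167 of 774 (21.6%). At 21 to 50 rows the share was close to the background. Rises of at least 1 on the log2 scale made up 22.4% within 5 rows, against 7.32% of the background. Among neighbours with wild-type means of 2 CPM or more, 33 of 95 were called higher (34.7%), against 22.2% of all such non-members. Large rises were fewer in that subset, 8.42% against 3.18% of its background. The rule partly fixes this, since identifiers of that level with a 4-fold rise and no overlap are members and are not counted. The median log2 fold change of the subset was 0.13, where it was 0.33 for all neighbours within 5 rows. The part of shared exons or shared reads in these shares was not tested.

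**Figure D4:**
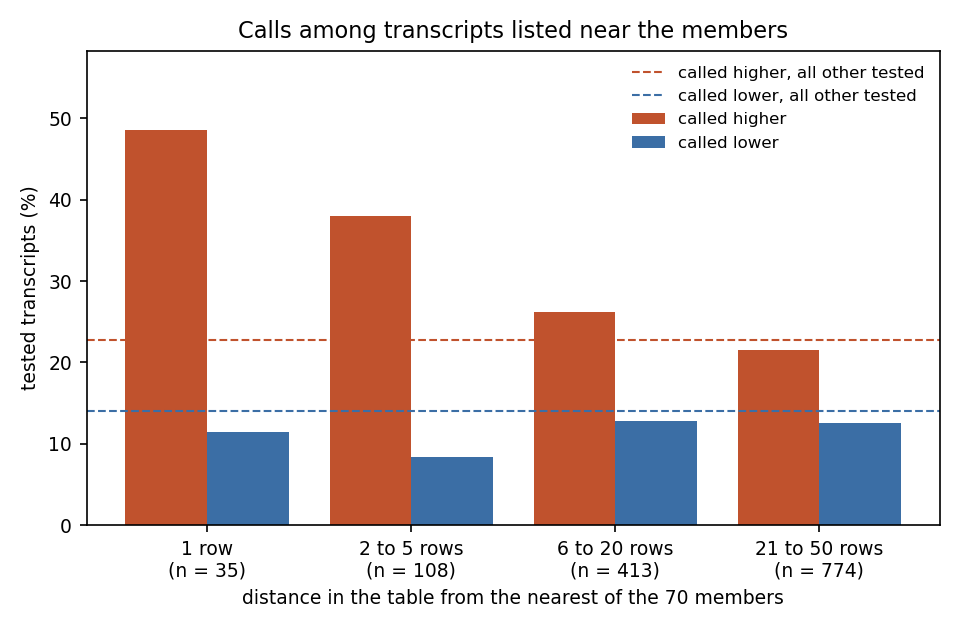
Share of tested transcripts called higher (orange) or lower (blue) in knockout, by distance in table rows from the nearest of the 70 members, which are not counted themselves. Dashed lines give the shares over all other tested transcripts outside the stretches, 22.8% higher and 14.1% lower, and the orange bars fall from 48.6% in adjacent rows to 21.6% at 21 to 50 rows.

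The neighbourhoods of single members differed. Of the 70, 12 had no other tested identifier within 5 rows and 13 had tested ones of which none was called. In 38 a non-member within 5 rows was called higher and in 14 one was called lower, 7 of which had both. A higher call was therefore not shared by all tested identifiers listed around a member.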

How the data were processed

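RNA-seq counts of 3 wild-type and 3 G9a knockout libraries were used. The deposited table holds raw read counts per UCSC transcript identifier. The submitters' processing notes name build mm9, Bowtie 0.12.7, R 2.12.1 and DESeq2, with no roles. The counting program, strand setting and treatment of multi-mapping reads are not stated in them, so overlapping or near-identical transcripts may split or share reads. The authors' deposited log2 fold changes, fold ratios, p-values and outlier marks are quoted as theirs. Their normalized counts and dispersions, deposited scores, were not used.

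Members were chosen on CPM from column sums. The test was the edgeR 4.0.16 quasi-likelihood test (R 4.3.3) on the counts, with filterByExpr, TMM and no covariate, p-values adjusted by Benjamini-Hochberg over 12713 identifiers. It was tested on simulated data. Chi-squares compare reads with equal shares of the library totals. Alternatives were DESeq2 1.42.0, other scalings, filters and thresholds, a replicate block, and each library left out. The members, lists and alternatives were chosen with earlier results of these data known. Without gene names, the rule names the identifiers with the largest ratio and the highest knockout mean. Ranks stand for the others.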

Additional observations from a re-analysis of the deposited data

How the results depend on the processing

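All 70 transcripts stayed called higher under every alternative run (DESeq2, other scalings and filters, a threshold of 0.01, the replicate block, each library left out), which the choice of members nearly fixes. Their median log2 fold change stayed between 2.81 and 2.87. The size of the list followed its thresholds by construction: 132 with a ratio of 3 or more, 43 with 6 or more, 128 with a wild-type mean of 1 CPM or more, and 32 with 4 CPM or more. TMM totals gave 72 and upper-quartile totals 67. The ratio of summed levels, 7.72, became 7.56 without uc008kob.1 and 7.32 with 1 member per run of rows, the last chosen after seeing the data. With each library left out it was 7.64 to 7.77. The share of neighbours called higher, 40.6%, became 29.9% within 20 rows, where more distant identifiers enter, beside a background of 22.8%. With each library left out it was 34.7% to 39.6%, beside backgrounds of 19.4% to 21.5%. The median coefficient of variation of all tested identifiers in knockout, 11.4%, became 6.25% in the members' range of means. No value changed sign.

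Replicate numbers were not used as pairs: the correlation of deviations across transcripts was 0.068, 0.090 and 0.023 for pairs 1, 2 and 3, none above 0.1. Every library's best correlation was with its namesake, which is a hint and not part of the design. With the replicate block, 70 were called higher and the median log2 fold change was 2.85. At this depth the weakest members rest on 52 wild-type reads, which limits their ratios.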
